A study of Mus musculus with 4 samples.

Results

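The tripartite motif (TRIM) family was followed in immune cells from mouse brains that carried GL261, a mouse glioma cell line. Members were all genes whose symbol starts with Trim followed by a digit, matched between libraries by Ensembl identifier. This gave 68 members among 30406 genes shared by all 4 libraries. Single cells positive for CD45.2, a surface antigen of blood-derived and resident immune cells, were sorted and sequenced by droplet RNA-seq with unique molecular identifiers (UMIs). There were 4 groups of 1 library each, all from GL261-bearing brains. Untreated wild-type (WT) mice and untreated IFNaR-/- mice (KO, lacking the type I interferon receptor) were sorted on day 20 after tumour injection. The treated WT and KO groups received anti-PD1, which is directed at the T cell checkpoint receptor PD-1, at 200.0 ug per mouse on days 7, 11, 15 and 19 and were sorted on day 25. Cell suspensions were pooled before sorting and the labels do not give how many mice each library holds. The labels also do not give the deleted receptor subunit, the age or the strain of the mice. With 1 library per group no difference could be tested. Intervals below are exact 95% intervals that cover counting error only, and neither mouse-to-mouse nor library-to-library spread is known.

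Most TRIM proteins hold a RING finger, B-boxes and a coiled coil, and most act as ubiquitin E3 ligases. Many sit in innate immunity, where they tag or restrict viral proteins and tune the sensors that lead to type I interferon. Type I interferon binds a receptor made of IFNAR1 and IFNAR2 and drives genes that carry an interferon-stimulated response element (ISRE), and some TRIM genes are among its textbook targets. Infiltrating macrophages and resident microglia are the main myeloid cells of GL261 tumours.

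The libraries differed in several technical measures. They held 3705 to 9530 barcodes and 32410040 to 94732545 UMIs, and 26014 of 28661 barcodes had at least 200 genes and at most 10% mitochondrial UMIs. The share over that mitochondrial limit was 21.0% and 24.2% in the untreated libraries and 0.693% and 3.29% in the anti-PD1 libraries. The anti-PD1 WT library stood apart in its T cells, with 2.01 T cell receptor V-segment UMIs per constant-segment UMI against 0.016 to 0.0794 in the other libraries, although the labels name 1 kit for all. The anti-PD1 libraries shared 95 barcodes and no other pair of libraries shared more than 3. Per the labels, CD3+ and CD3- cells were combined in equal parts for the anti-PD1 groups, and the sort step of the protocol speaks of lung. The counts do not show equal parts. Cells called T cells by their markers were 431 of 9464 kept cells in anti-PD1 WT and 595 of 8476 in anti-PD1 KO. In untreated WT and KO they were 1417 of 5264 and 627 of 2810. The reason was not tested. Treatment, sort day, software version, the number of features (31053 and 32285) and the CD3 mix given by the labels changed together. The first barcode also began with AAACCC in both untreated libraries and with AAACCT in both anti-PD1 libraries. These differences cannot be told apart, so KO was compared with WT within each pair. Within the anti-PD1 pair, whatever sets the WT library apart cannot be told apart from genotype. Each untreated value below is the value without the anti-PD1 libraries. Transcripts of the receptor genes gave no check of genotype: Ifnar1 was at 96.0 and 130 CPM (UMIs per 1000000 UMIs of the cells summed) in untreated WT and KO cells, and at 77.3 and 147 CPM in the anti-PD1 pair. Throughout, values of a pair are given with WT first. Ifnar2 was at 89.7 and 69.7 CPM, and at 298 and 202 CPM. Both genes were detected in the KO libraries, and the deleted part is not known.

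The family gave 209669 UMIs. Of the 68 members, 3 had no UMI (Trim54, Trim61 and Trim80), 22 had 1 to 49 and 43 had at least 50. The 10 members of the gene cluster at chr7:104218793-104507849, a stretch of 289 kb that holds Trim6, Trim34a, Trim5, Trim12a, Trim34b, Trim12c, Trim30b, Trim30c, Trim30a and Trim30d, gave 32.0% of these UMIs. The 8 members with the most UMIs over the 4 libraries were Trim30a (30815 UMIs, 14.7% of the family), Trim25 (25982, 12.4%), Trim8 (12111), Trim28 (12007), Trim26 (11138), Trim30d (10820), Trim35 (9344) and Trim12a (8713). These totals are not divided by transcript length and are no ranking of transcript levels.

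Sequence near the start sites is shown for the members on which the results turn, because the ISRE is a known element of interferon-stimulated genes. The motif was searched as GAAANNGAAA and its reverse complement TTTCNNTTTC on both strands, from 250 bases before to 50 bases after each RefSeq start (GRCm38.p6). It lay in 3.44% of 32851 promoters and, counted by gene, in 3.99% of 27025 genes. Of 53 members with a RefSeq promoter, 9 held it: 6 of 10 in the chromosome 7 cluster and 3 of 43 outside it (Trim2, Trim21 and Trim26). Each line below gives 30 bases on the gene's own strand with the match in capitals.

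Trim30a: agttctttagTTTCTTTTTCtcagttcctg

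Trim30d: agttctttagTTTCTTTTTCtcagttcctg

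Trim34a: tggtttggagTTTCAGTTTCttttctctgc

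Trim5: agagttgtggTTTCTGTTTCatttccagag

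Trim12a: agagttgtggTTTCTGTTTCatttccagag

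Trim12c: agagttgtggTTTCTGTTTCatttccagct

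Trim21: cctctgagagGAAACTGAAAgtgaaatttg

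Trim26: ccgcttccgaTTTCACTTTCcttttctcgg

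The Trim30a window (chr7:104465210-104465239, minus strand) began its match 36 bases before the start, and the Trim30d window (chr7:104507871-104507900, minus strand) 41 bases before it. These windows were identical at 30 of 30 bases. The Trim5 window (chr7:104288136-104288165, minus strand, match from -49) was likewise identical to that of Trim12a (chr7:104315466-104315495, minus strand, match from base 11 of the transcript), and the Trim12c window (chr7:104353359-104353388, minus strand, match from -29) shared 28 of 30 bases with them. The Trim34a window (chr7:104244457-104244486, plus strand) had its match from base 11 of the transcript. Trim21 (chr7:102565450-102565479, minus strand, match from base 14) held a further match from base 20 that overlaps the one shown, and Trim26 (chr17:36836976-36837005, plus strand, match from -160) held a further match from -154.

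Trim6, Trim34b, Trim30b and Trim30c held no match in this window. They are shown by the stretch most like the Trim30a window, with the aligned bases in capitals, to let the absent motif be read against it.

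Trim30c: agttctgtggTTCCTTTTTCtcagttccac

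Trim34b: agtgtttctgTTCCATTTACcaaattactg

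Trim30b: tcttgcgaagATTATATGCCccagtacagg

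Trim6: aaagcctaagTCTCTAATGAtgatgttctt

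The Trim30c stretch (chr7:104400896-104400925, minus strand, aligned bases from -137) shared 25 of 30 bases with Trim30a and missed the motif by 1 base. A stretch within 1 mismatch of the motif lay in 35.4% of all promoters. The Trim34b stretch (chr7:104329297-104329326, plus strand) shared 19 bases and missed the motif by 2. The Trim30b (chr7:104358689-104358718, minus strand) and Trim6 (chr7:104218659-104218688, plus strand) stretches shared 15 bases each and missed it by 4. The stretch printed for Trim30b is the one most like Trim30a, and elsewhere in its window Trim30b also came within 1 mismatch of the motif. The search bears only on these letters in this window. For Trim30b the GENCODE gene reaches to 104369884, upstream of the RefSeq start used here.

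Lineages were gated on raw UMIs of marker genes, and 16.6% to 23.9% of kept cells fell in no gate. Markers of tumour and glial cells, 5 in all, summed to 2.05 to 11.8 CPM in the monocyte/macrophage gate, and the 5 T cell markers to 2.23 to 34.2 CPM. The monocyte/macrophage gate was the largest, with 1782 WT and 963 KO cells in the untreated pair and 6361 and 4004 in the anti-PD1 pair. Its median depth was 7450.5 and 10469 UMIs per cell, and 8878 and 5512 in the anti-PD1 pair. A member was compared where it had at least 50 UMIs in the pair, and was called lower or higher past a 2-fold ratio. In the untreated pair 10 of 36 members compared were lower in KO and 0 were higher. Over all genes compared there, 4.78% were lower and 4.27% higher. In the anti-PD1 pair 7 of 42 members were lower and 3 higher, against 7.69% and 10.6% of all genes. All 7 of these were lower in both pairs (Trim12a, Trim21, Trim30a, Trim30b, Trim30c, Trim30d and Trim34a), out of 36 members compared in both, while 2.14% of all genes were. No member was higher in both pairs, against 1.77% of all genes. The median log2 ratio of the members was -0.28 in the untreated and -0.06 in the anti-PD1 pair, beside 0.06 and 0.14 over all genes.

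**Figure D1:**
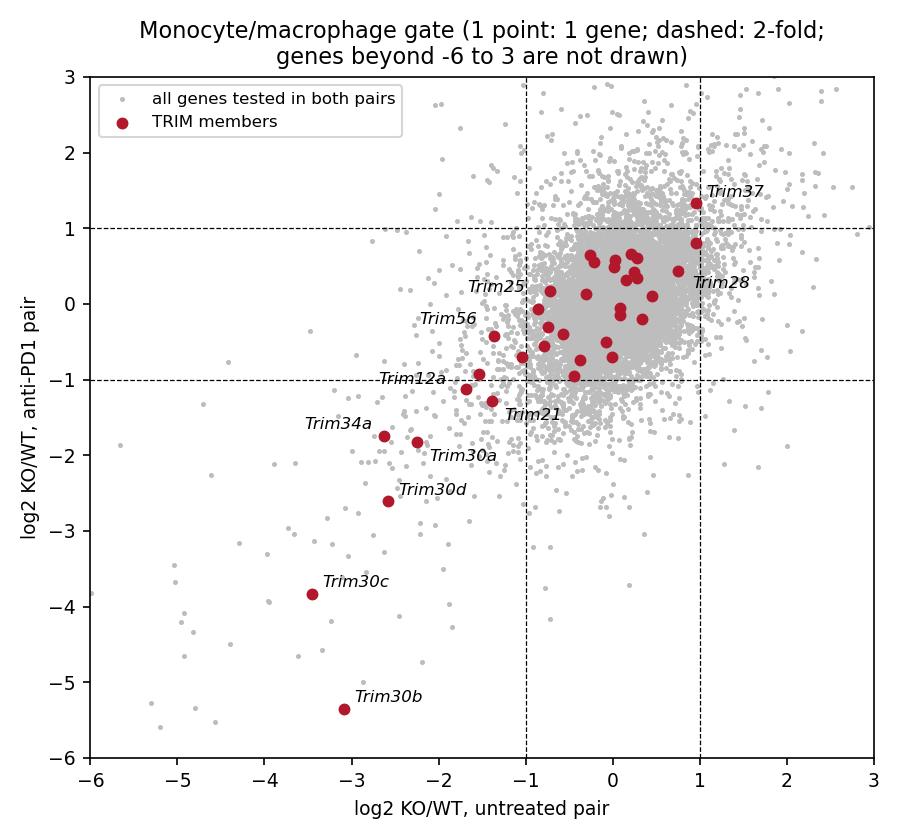
Each point is 1 gene in the monocyte/macrophage gate, with the log2 KO/WT ratio of the untreated pair on the x axis and of the anti-PD1 pair on the y axis; grey points are all genes compared in both pairs, red points are TRIM members and dashed lines mark 2-fold. The 7 members below both lines are Trim12a, Trim21 and the Trim30a, Trim30b, Trim30c, Trim30d and Trim34a genes.

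The difference lay mostly in the chromosome 7 cluster. Summed over its members, the cluster stood at 758 CPM in untreated WT and 177 CPM in untreated KO macrophages, and at 296 and 88.8 CPM in the anti-PD1 pair. Members outside it summed to 702 and 576 CPM in the untreated pair and to 551 and 569 CPM in the anti-PD1 pair. The cluster thus made up 51.9% and 23.5% of the family's UMIs in untreated WT and KO macrophages, and 34.9% and 13.5% in the anti-PD1 pair. Of the 9 cluster members compared, 7 were lower in the untreated pair (median log2 ratio -2.25) and 6 in the anti-PD1 pair (median -1.74). Over all genes, 4.78% and 7.69% were lower. All 9 had a ratio below 1 in both pairs, while 44.6% and 42.0% of all genes had a ratio below 1.

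Trim30a, which is known to restrain TLR signalling to NF-kB, was at 352 CPM in untreated WT and 74.1 CPM in untreated KO macrophages, and at 157 and 43.9 CPM in the anti-PD1 pair. Both WT libraries lay above both KO libraries. The level was 4.75-fold lower in untreated KO (interval 4.4 to 5.12) and 3.57-fold lower in anti-PD1 KO (3.35 to 3.79). Its neighbour Trim30d was at 144 and 24.0 CPM in untreated WT and KO, and at 56.3 and 9.20 CPM in the anti-PD1 pair. The Trim30d folds of 5.99 (5.26 to 6.85) and 6.12 (5.37 to 7.00) had overlapping intervals. Trim30a and Trim30d share 5.5% and 6.4% of their 60-base transcript windows with another member, so a small part of their reads could be counted for either.

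Trim30c showed the largest untreated ratio of the cluster, with an interval that overlaps that of Trim30b. It was at 38.3 CPM in untreated WT and 3.45 CPM in untreated KO macrophages (11.1-fold, 7.95 to 15.9), and at 6.83 and 0.462 CPM in the anti-PD1 pair (14.8-fold, 8.38 to 28.8, with 12 KO UMIs). Trim30b was at 38.5 and 4.48 CPM in the untreated pair (8.59-fold, 6.39 to 11.8). In the anti-PD1 pair Trim30b was at 7.04 and 0.154 CPM, a 45.7-fold difference that rests on 4 KO UMIs and has an interval of 17.7 to 169. Of all lineages, Trim30b was highest in neutrophils, so the neutrophil markers of the macrophage gate were read beside it. All 5 of those markers had UMIs in 3 libraries and 4 in anti-PD1 WT, where S100a9 was at 0. Their summed level was 259.8 and 319.9 CPM in untreated WT and KO, and 78.5 and 96.5 CPM in the anti-PD1 pair, higher in KO in both. The highest single marker gave 122.2 and 124.1 CPM of these sums in the untreated pair, and 66.9 and 65.5 CPM in the anti-PD1 pair. In untreated WT microglia 1 marker of this list gave 250.4 of 270.1 CPM, so the sum need not reflect neutrophils alone. The part of neutrophil RNA in the Trim30b values was not tested. Trim30b and Trim30c shared 0.274% and 0 of their 60-base windows with other members.

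Trim34a was at 34.3 and 5.51 CPM in untreated WT and KO (6.24-fold, 4.75 to 8.32) and at 13.2 and 3.93 CPM in the anti-PD1 pair (3.36-fold, 2.74 to 4.17). It shares 35.5% of its windows with Trim34b, which had 3 UMIs in this gate in the anti-PD1 pair and 0 in the untreated pair, so the split of reads between this pair of copies is uncertain. Trim12a, one of the mouse relatives of the primate retroviral restriction factor TRIM5alpha, was at 63.9 and 19.8 CPM in the untreated pair (3.23-fold, 2.78 to 3.77) and at 21.9 and 10.0 CPM in the anti-PD1 pair (2.18-fold, 1.91 to 2.50). Trim12c, from the same group, was at 68.6 and 33.3 CPM (2.06-fold, 1.82 to 2.33), and at 24.3 and 15.0 CPM in the anti-PD1 pair. There its ratio of 1.62 (1.45 to 1.82) stayed within the 2-fold line. The untreated Trim12c ratio stayed past 2-fold in 12 of 18 alternative settings.

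The remaining cluster members compared, Trim5 and Trim6, stayed within 2-fold in both pairs. Trim5, a further relative of TRIM5alpha, was at 12.5 and 7.19 CPM in untreated WT and KO (1.73-fold) and at 7.18 and 4.89 CPM in the anti-PD1 pair (1.47-fold). Trim6, known for unanchored ubiquitin chains that activate IKKepsilon, was at 6.37 and 4.67 CPM (1.36-fold, 0.956 to 1.97) and at 2.26 and 1.15 CPM (1.96-fold, 1.31 to 3.01). Within the cluster the fold thus ran from 1.36 for Trim6 to 11.1 for Trim30c in untreated macrophages. Trim5, Trim12a and Trim12c, which carry nearly the same 30-base window, were 1.73, 3.23 and 2.06-fold lower there. They share 23.3%, 6.22% and 22.4% of their 60-base transcript windows with other members, so these 3 ratios may hold some of each other's reads. The part of the 30-base window in these ratios was not tested.

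**Figure D2:**
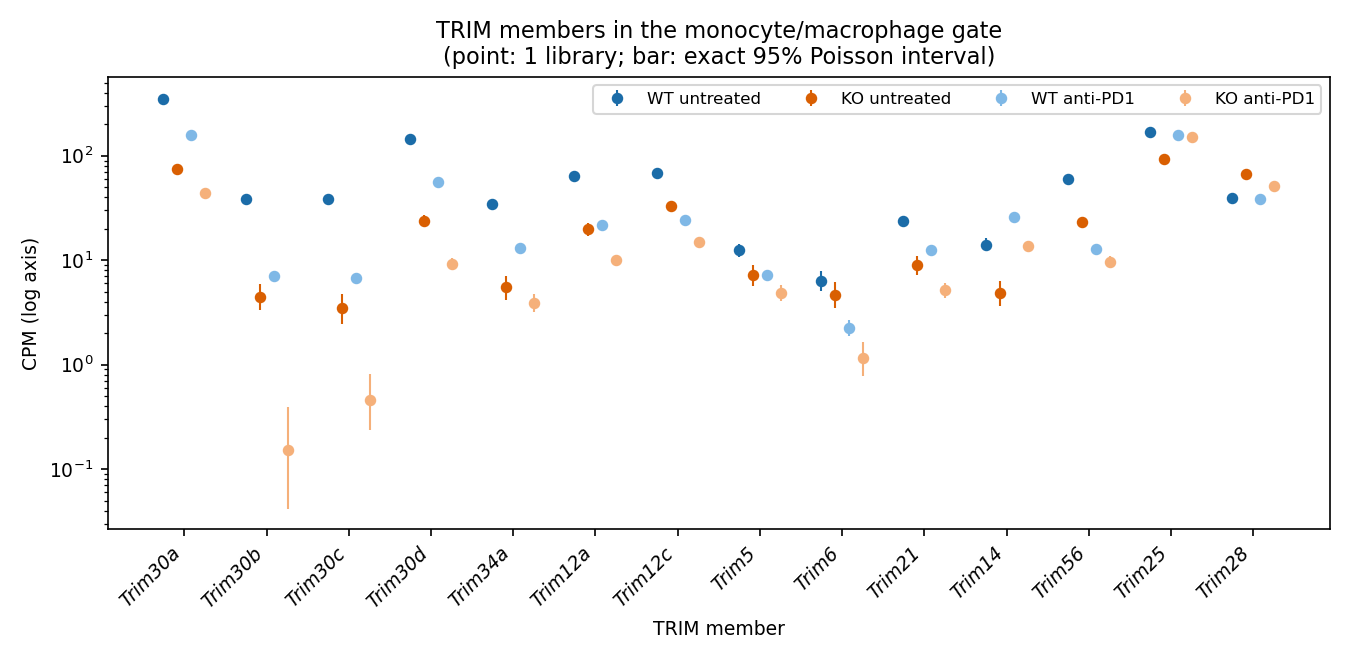
CPM (log axis) of 14 TRIM members in the monocyte/macrophage gate; each point is 1 library and each bar its exact 95% Poisson interval. Trim30a runs from 43.9 CPM in anti-PD1 KO to 352 CPM in untreated WT, while Trim25 spans 92.4 to 168 CPM.

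Among 12 listed members that act in antiviral sensing and signalling, 9 were compared. Of these, 3 were lower in the untreated pair (Trim14, Trim21 and Trim56), against 4.78% of all genes, and 1 in the anti-PD1 pair (Trim21), where 1 of 9 is near the 7.69% of all genes. Trim21, the cytosolic Fc receptor that targets antibody-bound virus for degradation, was at 23.6 and 8.96 CPM in the untreated pair (2.63-fold, 2.09 to 3.34) and at 12.6 and 5.16 CPM in the anti-PD1 pair (2.45-fold, 2.04 to 2.96). Trim14, an adaptor at mitochondria in the MAVS pathway, was at 14.1 and 4.85 CPM (2.91-fold, 2.14 to 4.03) and at 26.2 and 13.7 CPM (1.91-fold, 1.70 to 2.15). Relative to the median of genes of like intron length, the anti-PD1 log2 ratio of Trim14 went from -0.93 to -1.23, past 2-fold. Trim56, an E3 ligase linked to STING and cGAS signalling, was at 59.4 and 23.1 CPM (2.58-fold, 2.23 to 2.98) and at 12.9 and 9.62 CPM (1.34-fold, 1.16 to 1.56). Trim14 and Trim56 were named after their values were seen. Whether the pairs differ for these genes could not be tested. Trim14 overlaps Nans on the other strand, and whether counting used strand is not given in the sources used here.

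Trim25, the E3 ligase that ubiquitinates RIG-I, had many UMIs and a small ratio. It was at 168 and 92.4 CPM in untreated WT and KO macrophages (1.82-fold, 1.69 to 1.96) and at 159 and 152 CPM in the anti-PD1 pair (1.05-fold, 1.01 to 1.09). Trim26, linked to IRF3 turnover, was at 64.6 and 38.5 CPM (1.68-fold) and at 38.1 and 30.9 CPM (1.23-fold), and it holds an ISRE match. Trim8, a regulator of STAT3 and NF-kB signalling, was at 51.6 and 54.6 CPM in the untreated pair and at 41.8 and 40.1 CPM in the anti-PD1 pair. Its ratios of 1.06 (0.947 to 1.18) and 0.959 (0.892 to 1.03) had intervals that span 1.

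Among chromatin members 0 passed 2-fold in either pair. Over all genes, 4.78% were lower and 4.27% higher in the untreated pair, and 7.69% and 10.6% in the anti-PD1 pair. Trim28 (KAP1), the corepressor that silences retroelements with KRAB zinc finger proteins, was at 39.5 and 66.4 CPM in untreated WT and KO macrophages, a KO/WT ratio of 1.68 (1.5 to 1.88). In the anti-PD1 pair it was at 38.3 and 51.8 CPM, a ratio of 1.35 (1.26 to 1.45). With Trim24 and Trim33, 3 of 4 chromatin members were compared, with median log2 ratios of 0.28 and 0.48 beside 0.06 and 0.14 over all genes. Relative to genes of like intron length, the anti-PD1 log2 ratios were 0.22 for Trim28, 0.21 for Trim24 and 0.09 for Trim33, from 0.43, 0.60 and 0.48. Trim28 overlaps Zbtb45 on the other strand. Trim35, an E3 ligase of the remaining group, was at 36.2 and 30.2 CPM in the untreated pair and at 26.5 and 41.3 CPM in the anti-PD1 pair (ratio 1.56, 1.44 to 1.68), with opposite directions that both lay within 2-fold. No muscle member had enough UMIs to be compared. Of the other members, 13 of 34 were compared in the untreated and 18 in the anti-PD1 pair, and 0 were lower in either.

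The 3 members higher in anti-PD1 KO macrophages were Trim2, Trim29 and Trim37. Trim2, an NHL-repeat E3 ligase studied in neurons, was at 0.420 and 1.81 CPM, from 26 and 47 UMIs (ratio 4.31, 2.61 to 7.25). Trim37, an E3 ligase known for its part in peroxisomes and centrosomes, was at 5.04 and 12.6 CPM (ratio 2.51, 2.14 to 2.94), and at 4.27 and 8.31 CPM in the untreated pair (ratio 1.95). Trim29 was at 0.823 and 1.69 CPM (ratio 2.06). These 3 genes were named after their values were seen. In that pair the ratio also rose with a gene's intron length: the median log2 ratio was -0.13 in the decile of shortest total intron length and 0.48 in the longest, against -0.04 and 0.02 in the untreated pair. Relative to the median of the same decile, the log2 ratio was 1.62 for Trim2, 0.93 for Trim37 and 0.96 for Trim29, so 1 of the 3 stayed past 2-fold. The part of intron length in these ratios was not tested.

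The other lineages gave fewer UMIs. In each of these other lineages with at least 50 cells in both libraries of a pair Trim30a had a ratio below 1. In the untreated pair its fold ran from 1.79-fold lower in neutrophils to 4.54-fold lower in microglia. The ratios of 17 members by lineage are drawn in the heatmap.

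**Figure D3:**
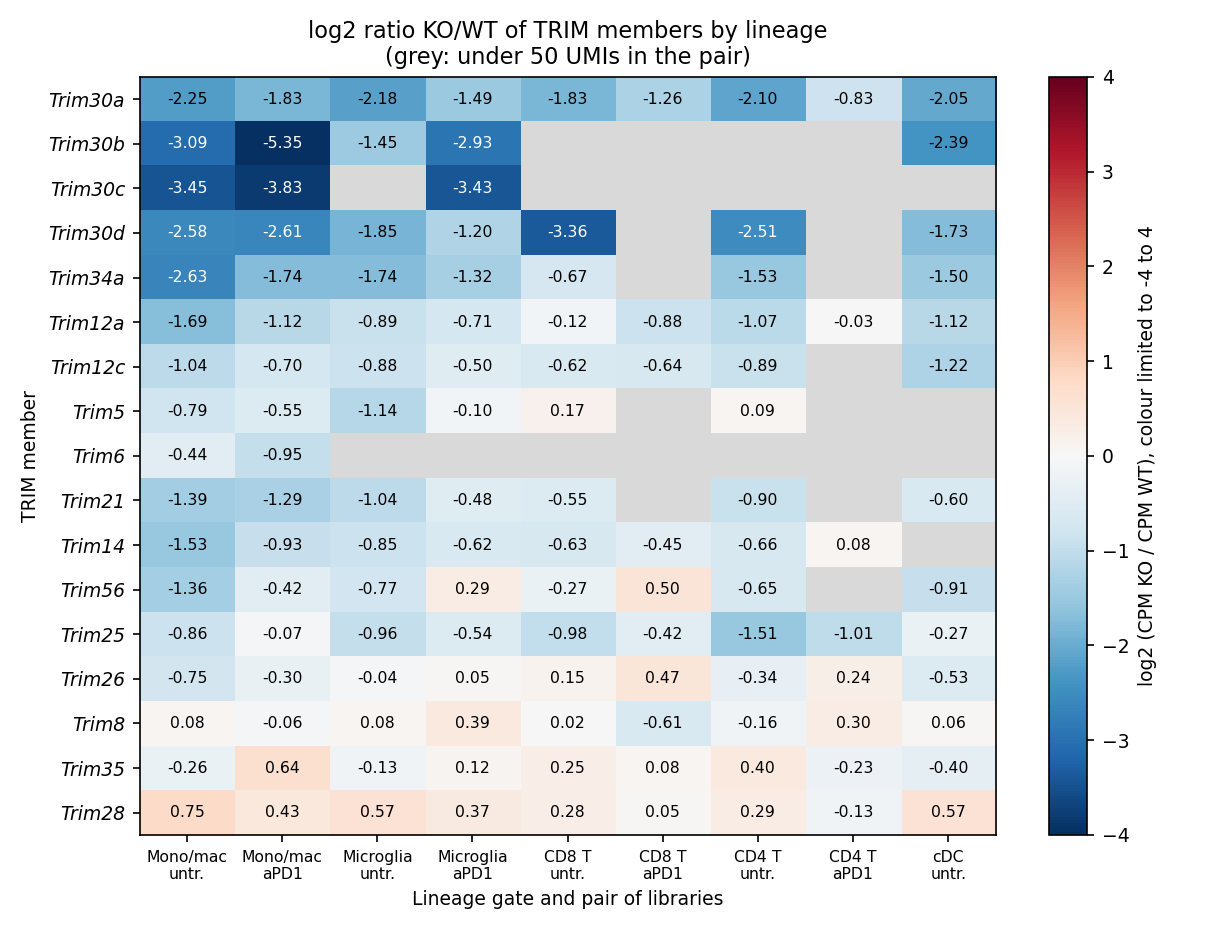
Rows are 17 TRIM members, columns are 9 combinations of lineage gate and pair, and each cell gives log2 (CPM KO / CPM WT); blue is lower in KO, red is higher and grey marks members under 50 UMIs. The rows Trim30a, Trim30d and Trim34a are blue in each column compared, Trim30a from -2.25 to -0.83, and no cell lies above 0.75.

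In microglia, the resident macrophages of the brain, 6 of 31 members were lower in the untreated pair and 0 higher, against 2.72% and 1.68% of all genes. In the anti-PD1 pair 5 of 38 were lower and 3 higher, against 5.06% and 9.92%. Members lower in both were Trim30a, Trim30b, Trim30d and Trim34a, 4 of 31, against 1.16% of all genes, and none was higher in both, against 0.666%. Trim30a was at 238 and 52.4 CPM in untreated WT and KO (4.54-fold, 3.84 to 5.39) and at 140 and 50.1 CPM in the anti-PD1 pair (2.80-fold, 2.57 to 3.05). Trim30d was at 96.5 and 26.7 CPM (3.62-fold) and at 47.6 and 20.7 CPM (2.30-fold). Trim34a was at 29.3 and 8.68 CPM (3.38-fold) and at 14.2 and 5.64 CPM (2.51-fold). All 3 were lower in each KO library than in either WT library. Trim5 was lower in the untreated pair (22.2 and 9.97 CPM, 2.23-fold) and within 1.07-fold in the anti-PD1 pair (8.40 and 7.84 CPM), and Trim21 was 2.08-fold and 1.40-fold lower. Trim12a (1.85 and 1.64-fold) and Trim12c (1.84 and 1.41-fold) stayed within 2-fold.

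Trim30b and Trim30c in microglia rested on few UMIs. Trim30b had 57 and 16 UMIs in untreated WT and KO (14.4 and 5.15 CPM) and 51 and 6 in the anti-PD1 pair (3.37 and 0.413 CPM). Thinned to 1000 UMIs per cell, the untreated Trim30b ratio turned to the other side, a log2 value of 0.60 in place of -1.45. Trim30c was at 4.04 and 0.344 CPM in the anti-PD1 pair (11.7-fold, 4.77 to 37.4, with 5 KO UMIs). The summed level of Trim30b and Trim30c in microglia was 24.0% (WT) and 64.8% (KO) of that in macrophages in the untreated pair, and 53.4% and 123% in the anti-PD1 pair. Lyz2, a macrophage transcript, was at 16.0% and 39.6%, and at 34.3% and 32.8%. The part of carried-over macrophage RNA in these values was not tested. Trim2 was at 25.0 and 27.0 CPM in untreated microglia and at 5.82 and 14.1 CPM in the anti-PD1 pair (ratio 2.42). Relative to its intron-length decile, the last log2 value fell from 1.27 to 0.50. Trim7 (12 and 38 UMIs, ratio 3.29) and Trim17 (25 and 49 UMIs, ratio 2.04) were the other members higher in that pair and were named after their values were seen.

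In CD8 T cells (677 and 378 cells untreated, 198 and 371 anti-PD1) 2 of 30 members were lower in the untreated pair, against 1.37% of all genes, and 1 of 18 in the anti-PD1 pair, against 5.69%. None was higher, while 1.42% and 8.8% of all genes were. Trim30a was at 126 and 35.4 CPM in untreated WT and KO (3.56-fold, 3.0 to 4.24) and at 163 and 67.9 CPM in the anti-PD1 pair (2.40-fold, 1.85 to 3.12), and was the 1 of 18 members lower in both (0.764% of all genes were, and 0.364% were higher in both). Trim30d was at 35.9 and 3.40 CPM in the untreated pair (10.6-fold, 6.29 to 19.1, with 15 KO UMIs). Trim12a was at 76.2 and 70.3 CPM (1.08-fold, 0.944 to 1.25) and Trim34a 1.59-fold lower, so these cluster members stayed within 2-fold in untreated CD8 T cells. Trim25 lay near the line at 35.6 and 17.9 CPM (1.98-fold, 1.54 to 2.58). Among CD8 T cells with no UMI of the proliferation genes Mki67 and Top2a, Trim30a was 3.29-fold lower in the untreated and 2.62-fold lower in the anti-PD1 pair.

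In CD4 T cells (427 and 147 cells untreated, 166 and 120 anti-PD1) 5 of 25 members were lower in the untreated pair, against 2.03% of all genes, and 1 of 12 in the anti-PD1 pair, against 7.06%. None was higher, while 1.84% and 6.64% of all genes were. The 5 were Trim12a, Trim25, Trim30a, Trim30d and Trim34a. Trim30a was at 178 and 41.3 CPM (4.31-fold, 3.34 to 5.65) and, in the anti-PD1 pair, at 137 and 76.4 CPM (1.80-fold, 1.26 to 2.62). Trim30d was at 48.7 and 8.26 CPM (5.90-fold), Trim34a at 26.5 and 8.89 CPM (2.98-fold) and Trim12a at 77.7 and 36.8 CPM (2.11-fold) in the untreated pair. Trim25 was the member lower in both pairs, 1 of 12 against 0.603% of all genes, with none higher in both against 0.156%. It was at 38.7 and 13.3 CPM in the untreated pair (2.90-fold, 1.83 to 4.84) and at 61.3 and 29.8 CPM in the anti-PD1 pair (2.06-fold, 1.17 to 3.83, from 58 and 16 UMIs). The last ratio is at the line, and with barcodes found in more than 1 library left out it fell inside it. Relative to the intron-length decile, the anti-PD1 log2 ratio of Trim25 went from -1.01 to -0.90, inside the line, and that of Trim30a from -0.83 to -1.23, past it, so under that setting the member lower in both pairs was Trim30a.

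Macrophage RNA in the T cell gates was read from the C1q genes, which stood there at 0.683% to 3.6% of their macrophage level. Trim30a stood at 35.8% to 174% of its macrophage level in these gates and Trim12a at 119% to 417%. In untreated WT cells the summed level of Trim30b and Trim30c was 2.12% of the macrophage level in CD8 and 2.54% in CD4 T cells, and C1q was at 1.0% and 1.31%. In the other libraries this sum ran from 0 to 303% in the T cell gates on very few UMIs. The 303% in anti-PD1 KO CD4 T cells came from 1 UMI, and the 21.3% in anti-PD1 WT CD8 T cells from 3.

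Conventional dendritic cells (119 and 149 cells, untreated pair alone) had 6 of 21 members lower in KO and 0 higher, against 3.91% and 3.58% of all genes. All 6 were cluster members, and they were all the cluster members compared: Trim12a, Trim12c, Trim30a, Trim30b, Trim30d and Trim34a. Trim30a was at 392 and 94.3 CPM (4.16-fold, 3.55 to 4.89), Trim30b at 44.4 and 8.33 CPM (5.33-fold, 3.14 to 9.43) and Trim30d at 152 and 45.6 CPM (3.33-fold). Trim30c had 18 UMIs in WT and 0 in KO dendritic cells. Trim25 was at 106 and 88.1 CPM (1.20-fold, 0.965 to 1.49), within 2-fold.

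Neutrophils (58 and 65 cells) had 4 members with enough UMIs, of which 1, Trim12a, was lower, against 4.16% of all genes, and 0 were higher, against 4.94%. Trim12a was at 309 and 144 CPM (2.15-fold, 1.34 to 3.55) and Trim30a at 350.0 and 195 CPM (1.79-fold, 1.18 to 2.77). Trim30b was at 299 CPM in WT and 258 CPM in KO neutrophils, from 65 and 45 UMIs, a 1.16-fold difference with an interval of 0.78 to 1.73. The cluster made up 69.3% of the family's UMIs in WT and 66.5% in KO neutrophils. The Trim30b interval in neutrophils did not reach the 6.39 to 11.8 of untreated macrophages, but both come from the same pair of libraries and the difference between lineages was not tested.

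Natural killer, B and plasmacytoid dendritic cells had fewer than 50 cells in at least 1 library of each pair and were not compared. As levels alone, Trim30a was at 178 CPM in untreated WT and 66.0 CPM in untreated KO natural killer cells. In B cells it was at 239 and 28.6 CPM, and in plasmacytoid dendritic cells at 540 and 102 CPM. Trim30d stood at 194 and 26.1 CPM in plasmacytoid dendritic cells.

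**Figure D4:**
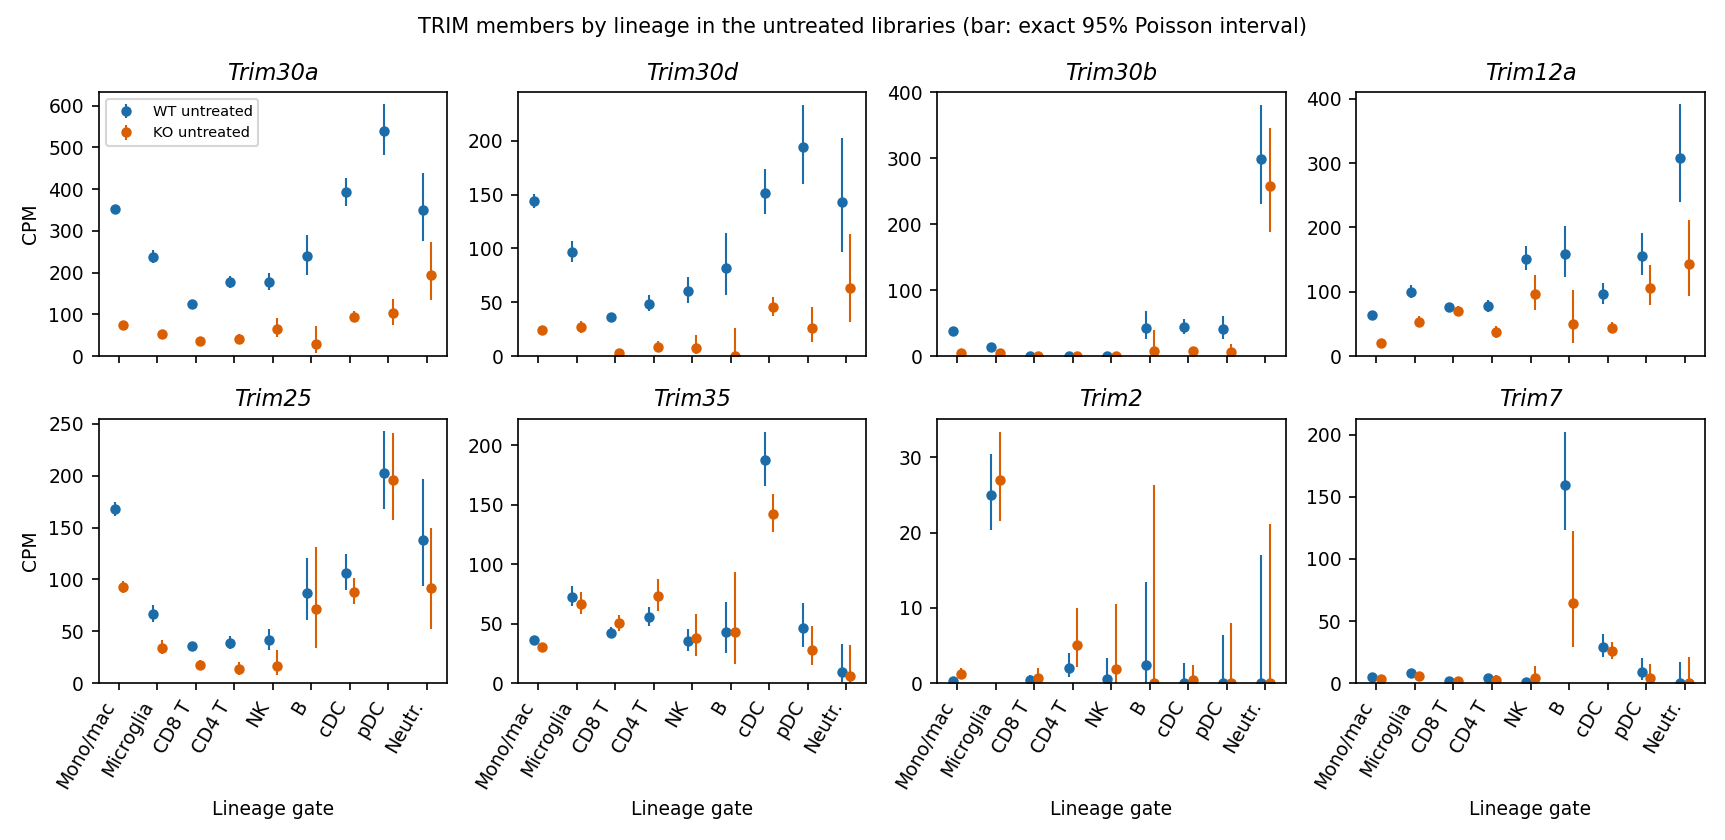
CPM of 8 TRIM members in 9 lineage gates of the untreated libraries; each point is 1 library and each bar its exact 95% Poisson interval. The Trim30a point is lower in KO in each gate, but natural killer, B and plasmacytoid dendritic cells were too few to compare. Trim30b peaks in neutrophils at 299 CPM in WT and 258 CPM in KO, Trim35 peaks in dendritic cells and Trim2 in microglia.

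Members also differed between lineages in untreated WT cells. Trim30b was highest in neutrophils (299 CPM), 6.75-fold (4.69 to 9.71) above the next gate, dendritic cells at 44.4 CPM, and had no UMI in natural killer cells. Trim30c was highest in macrophages (38.3 CPM) and at 0.626 CPM in CD8 T cells. Trim12a ran the other way, highest in neutrophils (309 CPM) and lowest in macrophages (63.9 CPM). Trim30a was highest in plasmacytoid dendritic cells, 1.38-fold (1.19 to 1.58) above conventional dendritic cells, and lowest in CD8 T cells. Trim25 was at 203 CPM in plasmacytoid dendritic cells and 168 CPM in macrophages, neighbours that did not differ beyond counting error (ratio 1.21, 0.996 to 1.45). Trim35 was highest in conventional dendritic cells (188 CPM), 2.58-fold (2.17 to 3.06) above microglia. Of members named after their values were seen, Trim7 was highest in B cells (159 CPM), 5.42-fold (3.62 to 8.21) above conventional dendritic cells, and Trim47 in microglia (25.8 CPM), 4.79-fold (3.53 to 6.52) above macrophages. Trim2 was at 25.0 CPM in microglia and 2.41 CPM, a single UMI, in the next gate, B cells.

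The macrophage gate held different states in WT and KO. Cells with at least 2 UMIs of 2 or more of C1qa, C1qb and C1qc (C1q-positive; C1q-negative cells had fewer than 2 of each) made up 40.9% of untreated WT and 65.1% of untreated KO cells of the gate, and 79.1% and 88.8% in the anti-PD1 pair. Cells with at least 2 UMIs of Arg1, an arginase of suppressive macrophages, made up 20.7% and 55.9% in the untreated pair and 61.0% and 74.1% in the anti-PD1 pair. Trim30a also differed by state, at 242 CPM in C1q-positive and 473 CPM in C1q-negative untreated WT cells. Within each state it was lower in KO: by 3.56-fold and 5.24-fold in C1q-positive and C1q-negative cells of the untreated pair, and by 3.42-fold and 3.86-fold in the anti-PD1 pair. In Arg1-positive cells the Trim30a folds were 3.74 and 3.35, and in cells with no Arg1 UMI 4.19 and 4.10. Trim30d was 4.35 to 6.84-fold lower over these states and pairs, and Trim34a 2.89 to 9.56-fold. Trim12a was 2.95 to 2.99-fold lower in the untreated pair in every state shown. In the anti-PD1 pair its folds were 1.62 to 2.21, with C1q-negative and Arg1-negative cells inside the line (12 and 57 KO UMIs). Trim12c in the untreated pair passed 2-fold in C1q-negative cells alone (2.31-fold). It was 1.51-fold lower in C1q-positive, 1.61-fold in Arg1-positive and 1.86-fold in Arg1-negative cells.

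**Figure D5:**
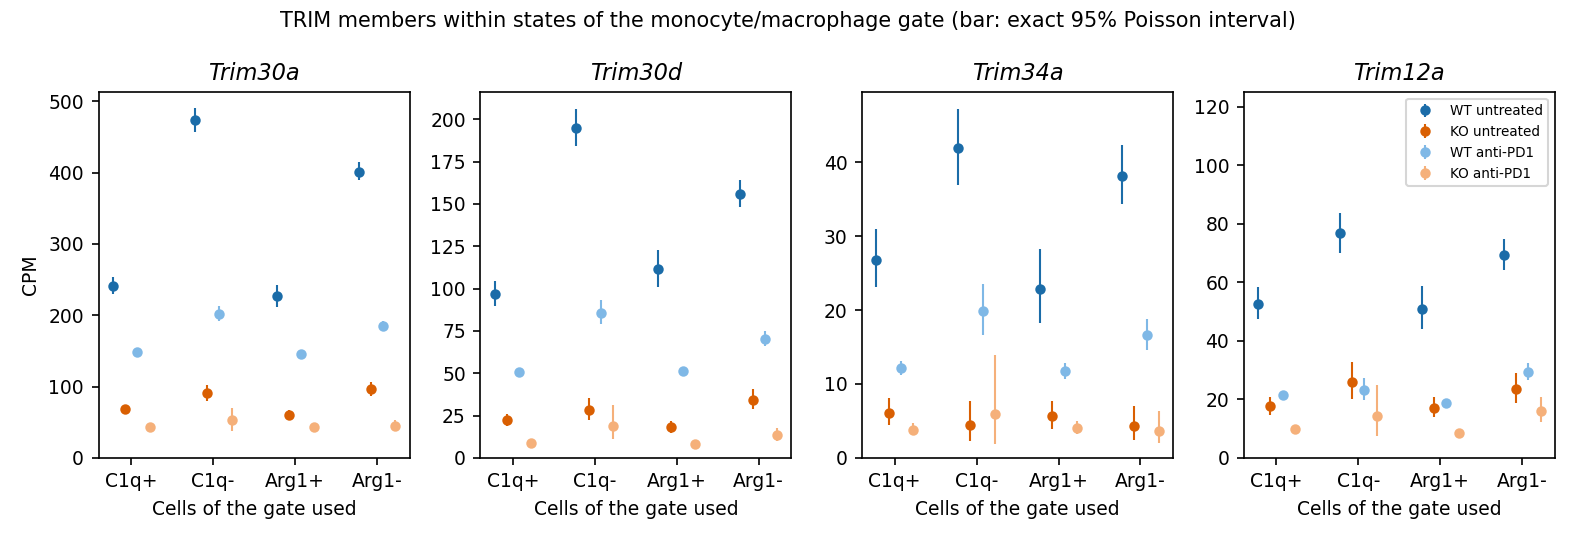
CPM of Trim30a, Trim30d, Trim34a and Trim12a in C1q-positive, C1q-negative, Arg1-positive and Arg1-negative cells of the monocyte/macrophage gate; each point is 1 library and each bar its exact 95% Poisson interval. In each state the KO points lie below the WT point of the same pair, and untreated WT Trim30a is higher in C1q-negative (473 CPM) than in C1q-positive cells (242 CPM).

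TRIM proteins with other symbols fall outside the family rule and were listed apart. Pml (TRIM19), the scaffold of nuclear bodies, was at 63.9 and 11.9 CPM in untreated WT and KO macrophages (5.39-fold) and at 29.8 and 7.62 CPM in the anti-PD1 pair (3.90-fold). Mefv (TRIM20, pyrin), an inflammasome sensor, was 1.91-fold and 1.61-fold lower. Mid1 (TRIM18), a microtubule-bound E3 ligase at chrX:169685199-170005736, went the other way. Over all kept cells Mid1 was at 18.2 and 399 CPM in untreated WT and KO, and at 14.1 and 189 CPM in the anti-PD1 pair. Its KO/WT ratio in macrophages was 13.8 in the untreated and 12 in the anti-PD1 pair, and in microglia 20.6 and 13.4. Sex-linked transcripts, looked up after the Mid1 values were seen, did not separate the groups: the 4 libraries held 1, 0, 0 and 0 UMIs of Xist, and Ddx3y from the Y chromosome was at 53.8 to 117 CPM in each. What sets the Mid1 level was not tested.

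Other genes of the pathway place these values. Of 30 listed interferon-stimulated genes, 28 were lower in untreated and 29 in anti-PD1 KO macrophages, against 4.78% and 7.69% of all genes. Their median log2 ratios were -3.70 and -3.10. Of 11 genes of the RIG-I, MAVS and STING pathway, 3 were lower in both pairs: the RNA sensors Ddx58 and Ifih1 and the DNA sensor Mb21d1 (cGAS). Over all genes, 2.14% were lower in both. Ddx58 and Ifih1 are also among the 30 interferon-stimulated genes, so they count in both lists. Of 6 ubiquitin-conjugation genes 1 was lower in both pairs, against the same 2.14% of all genes. This was Ube2l6, the E2 enzyme for ISG15, at 4.41-fold and 6.12-fold. Of 5 genes of the TRIM28 repressor complex 0 were lower, and Cbx3 was higher in the anti-PD1 pair, as were 10.6% of all genes.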

How the data were processed

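Droplet single-cell RNA-seq of sorted CD45.2+ cells was used, 1 library per group. The authors deposited matrices of UMI counts made with Cell Ranger 3.1.0 (untreated) and 7.2.0 (anti-PD1), per the file headers. Builds are mm10 and GRCm38 per the submitters' processing notes. The setting for intronic reads, strand and cell calling is not given in the sources used here. Barcodes under 200 genes or over 10% mitochondrial counts were dropped. Gates needed raw UMIs of 2 of 5 T cell, 3 of 6 microglia or 3 of 5 macrophage markers. T cells could hold at most 1 macrophage marker, and microglia at most 1 T cell marker. Macrophages could hold at most 1 microglia and 1 T cell marker. The microglia gate set no limit on macrophage markers, and the macrophage gate none on neutrophil or dendritic markers. Cells that passed more than 1 gate were left out, which with these limits was the main handling of doublets. Removal of top Scrublet scores was an alternative. UMIs were summed per library and lineage with at least 50 cells and divided by the lineage total (CPM). Ratios used a pseudocount of 0.5 UMIs for log2 values, an exact conditional binomial interval and no test. Folds were computed without the pseudocount.

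Named members were those past 2-fold the same way in both pairs of a lineage, the 8 with most UMIs, those of opposite calls in the 2 pairs, and the chromosome 7 cluster, which gave 16. The members and gene lists were chosen with earlier results of these data known. In all, 16 other settings were run, and 3 more were chosen after seeing the data (intron-length deciles, the median of all genes, and shared barcodes left out). Positions are from GENCODE (GRCm38) and promoters from RefSeq (GRCm38.p6). The interval method was run on simulated counts that hold counting error only. That run does not bear on mouse-to-mouse or library-to-library spread. Software was Python 3.11.15, numpy 2.4.6, scipy 1.17.1, pandas 2.3.3, scanpy 1.11.5, matplotlib 3.10.9, R 4.3.3, edgeR 4.0.16 (TMM factors) and DESeq2 1.42.0 (size factors).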

Additional observations from a re-analysis of the deposited data

How the results depend on the processing

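Each group holds 1 library, so library-to-library spread limits every ratio and depth limits members near 50 UMIs. No paired analysis was possible because each group holds 1 library. Of 42 called member values under 645 alternatives, 644 kept their sign and 621 their side of the 2-fold line. The exception in sign was Trim30b in untreated microglia, at 0.598 on the log2 scale with cells thinned to 1000 UMIs. In macrophages the members lower in KO numbered 8 to 13 (untreated), 7 to 10 (anti-PD1) and 5 to 8 (both pairs), within 1.5 times the main counts. Strict gates gave no comparison of dendritic cells. The median log2 ratio of all genes was 0.0195 to 0.259. The cause of each change below was not tested unless the setting itself tests more or fewer genes. With no minimum, the genes compared in the untreated pair rose from 1155 to 9444 in neutrophils and from 10428 to 17196 in macrophages. Genes with very few UMIs then enter. The share of all genes called under each setting is not given here, so the counts below show how calls move and are no result about the members.

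Counts of members lower in KO moved as follows. In anti-PD1 CD8 T cells there were 2 with DESeq2 or TMM factors, with each cell weighted alike or relative to the median of all genes, 0 with thinned cells, 4 at a minimum of 10 UMIs and 7 with no minimum. In untreated CD8 T cells there were 4 with each cell weighted alike and 7 with no minimum, and in both pairs 0 when thinned, 2 at 10 UMIs and 3 with no minimum. In anti-PD1 CD4 T cells, and in both pairs, there were 0 with thinned cells, pseudocount 1, strict gates or shared barcodes left out, and 2 at a minimum of 10 UMIs, while no minimum gave 7 and 2. Untreated CD4 T cells gave 1 when thinned. Microglia gave 3 (untreated), 2 (anti-PD1) and 2 (both) when thinned, and 11 and 10 with no minimum. Dendritic cells gave 1 when thinned and 12 with no minimum. Neutrophils gave 2 with DESeq2 factors, equal weights, strict gates, the intron-length decile or the median of all genes, 0 when thinned or with Scrublet scores removed, 6 at 10 UMIs and 11 with no minimum.

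Counts of members higher in KO moved as follows. Untreated macrophages gave 1 with the stricter or no cell filter, thinned cells, C1q-negative cells, cells with no Arg1 UMI or Scrublet scores removed, 2 at 10 UMIs and 7 with no minimum. Anti-PD1 macrophages gave 1 with thinned cells, the intron-length decile, Arg1-positive cells or cells with no Arg1 UMI, and 10 with no minimum. Both pairs gave 2 at 10 UMIs and 5 with no minimum. Anti-PD1 microglia gave 1 with TMM factors, thinned cells or the intron-length decile and 9 with no minimum, untreated microglia 1 with the stricter cell filter and 4 with no minimum, and both pairs 2 with no minimum. At 10 UMIs there were 2 in anti-PD1 CD4, 2 in anti-PD1 CD8, 3 in untreated CD4 T cells, 2 in dendritic cells and 2 in neutrophils. With no minimum these were 8, 6, 6, 3 and 4, with 3 in untreated CD8 T cells and 2 in CD4 T cells of both pairs.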
